A study of Homo sapiens with 6 samples.

Results

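The long noncoding RNAs described here are 10 named genes, selected on 2 grounds: some are widely studied, and others were chosen by the difference of their log2 signals between 28 °C and 37 °C on these arrays. MALAT1, NEAT1, NORAD, OIP5-AS1, LINC00641, LINC00273, CHKB-DT, MEG3, H19 and TUG1 were looked up among 22411 genes that had a feature with a single gene symbol, 1937 of them long noncoding RNA genes by RefSeq biotype. 8 of the 10 had such a feature. The only feature of NEAT1 also carries the symbol MIR612, and the only feature of H19 also carries MIR675, so neither was given a value. Because the choice used the contrast of 28 °C with 37 °C, the differences of the 8 genes are given as a description, with no p-value.

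The study placed AC16 cells in the cold to look for long noncoding RNAs that respond to hypothermia. AC16 is an established human cell line, described in the study as coming from adult ventricular cardiomyocytes. It was grown in DMEM/F-12 with 10% fetal bovine serum under 5% CO2. The hypothermia group held 3 samples kept at 28 °C for 6 h and the control group held 3 samples kept at 37 °C for 6 h, with no other agent in either group. Total RNA was hybridised to Affymetrix arrays, 1 per sample, and the deposited values are log2 signals made with RMA (background correction, normalization across arrays and a summary over probes). Nothing in the labels or methods tells if replicates came from separate cultures, and p-values therefore reflect a spread among samples that could be technical. The median log2 signal of an array lay between 3.33 and 3.41. Of the cardiomyocyte markers 13 of 14 were measured and 10 lay above the median signal of the background features, but only 2 lay above the median gene, with GATA4, a cardiac transcription factor, highest at 6.80 and phospholamban (PLN) lowest at 2.06. Fibroblast and mesenchymal markers had a higher median log2 signal (8.17) than cardiomyocyte markers (4.16), and none of either list passed the test between groups. Of the endothelial markers 3 of 3, and of the measured leukocyte markers 3 of 5, also lay above the background median, but none above the median gene.

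Long noncoding RNAs are transcripts that work as RNA and not through a large protein. Some build or occupy nuclear bodies, some act in the cytoplasm by binding RNA-binding proteins or microRNAs, and others act on neighbouring genes or arise from imprinted clusters in which a single parental allele is expressed. MALAT1 and NEAT1 belong to the first kind, NORAD and OIP5-AS1 to the second, and MEG3 and H19 to imprinted clusters.

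The promoter windows of the 5 genes whose arrays did not overlap between the groups are given next (17.9% of all features had no overlap in either direction), so that their start regions can be compared. Each holds 250 bases before and 50 bases after a transcription start in RefSeq (GRCh38.p14), 5′ to 3′ on the strand of the gene. Windows were found for 9 of the 10 genes, and the first listed was used where a gene had several. The OIP5-AS1 window lies inside the annotated span of its gene, downstream of the outermost start (chr15:41282697). In NORAD, OIP5-AS1, TUG1 and CHKB-DT, capitals mark the ETS core (CCGGAA, or TTCCGG on the other strand), the E-box (CACGTG) and the CCAAT box (CCAAT, or ATTGG on the other strand). In LINC00273, which held none of the 3 motifs, they mark the transcribed 50 bases. The choice of these 3 out of the 8 motifs searched rests on no test. The GC box of OIP5-AS1, TUG1 and CHKB-DT is left unmarked.
NORAD, chr20:36050911-36051210, minus strand: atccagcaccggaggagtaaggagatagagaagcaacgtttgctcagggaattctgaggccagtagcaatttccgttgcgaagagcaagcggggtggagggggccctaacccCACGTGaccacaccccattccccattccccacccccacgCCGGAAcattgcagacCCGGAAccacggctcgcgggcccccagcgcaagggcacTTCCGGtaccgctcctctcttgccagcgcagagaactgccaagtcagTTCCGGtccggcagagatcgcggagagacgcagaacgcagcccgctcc
OIP5-AS1, chr15:41283740-41284039, plus strand: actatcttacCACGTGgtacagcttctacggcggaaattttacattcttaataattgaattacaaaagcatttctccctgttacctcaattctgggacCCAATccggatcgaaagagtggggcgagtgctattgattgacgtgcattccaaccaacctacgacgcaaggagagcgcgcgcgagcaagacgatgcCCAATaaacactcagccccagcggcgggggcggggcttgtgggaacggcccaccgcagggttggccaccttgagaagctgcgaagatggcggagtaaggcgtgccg
TUG1, chr22:30969015-30969314, plus strand: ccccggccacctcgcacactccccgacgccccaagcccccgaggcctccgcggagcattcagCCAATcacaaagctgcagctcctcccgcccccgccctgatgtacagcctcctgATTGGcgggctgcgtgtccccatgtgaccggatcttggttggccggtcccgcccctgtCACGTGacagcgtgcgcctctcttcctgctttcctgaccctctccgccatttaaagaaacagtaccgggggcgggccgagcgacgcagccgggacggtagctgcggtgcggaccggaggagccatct
CHKB-DT, chr22:50582776-50583075, plus strand: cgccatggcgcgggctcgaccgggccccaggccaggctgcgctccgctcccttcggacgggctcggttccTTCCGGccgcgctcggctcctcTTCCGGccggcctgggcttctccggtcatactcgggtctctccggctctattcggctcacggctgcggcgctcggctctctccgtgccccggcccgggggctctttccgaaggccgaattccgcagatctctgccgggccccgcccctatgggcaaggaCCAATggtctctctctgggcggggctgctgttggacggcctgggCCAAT
LINC00273, chr16:34159924-34160223, minus strand: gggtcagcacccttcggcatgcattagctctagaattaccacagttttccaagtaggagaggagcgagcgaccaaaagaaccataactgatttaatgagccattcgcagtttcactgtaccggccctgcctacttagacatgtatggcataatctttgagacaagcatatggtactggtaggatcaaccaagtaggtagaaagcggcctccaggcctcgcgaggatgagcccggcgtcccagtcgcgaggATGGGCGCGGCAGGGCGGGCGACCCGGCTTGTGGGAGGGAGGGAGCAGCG

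8 motifs were searched on both strands in these windows and in the first window of each of 27305 genes of the table, with positions counted from 0 at the start to the first base of the motif. The E-box, a palindrome bound by basic helix-loop-helix factors, was found in the windows of NORAD, OIP5-AS1 and TUG1, at -138, -240 and -77 from the start, in none of the windows searched for the other 6 genes, and in 7.43% of the windows of all genes. NORAD held 4 ETS cores, at -99, -83, -45 and 2, CHKB-DT held 2, at -180 and -158, MEG3 held 1, at -99, and 17.6% of all windows held 1 or more. The CCAAT box occurred 2 times each in CHKB-DT (at 1 and 45), OIP5-AS1 (at -152 and -56) and TUG1 (at -188 and -135) and once each in LINC00641 and MEG3, and 35.7% of all windows held it. The TATA box (TATAAA, 11.9% of all windows) and the cAMP response element (TGACGTCA, 1.98% of all windows) occurred among the 9 genes only in MEG3. The GC box (GGGCGG, 44.6% of all windows) occurred 5 times in MALAT1, 4 times in TUG1, 2 times in CHKB-DT and once each in OIP5-AS1 and LINC00273. The YY1 motif (AAGATGGC, 3.03% of all windows) occurred in OIP5-AS1, and the EGR1 motif (GCGTGGGCG, 0.784% of all windows) in none of the 9. These matches are descriptions of the letters and not of binding.

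MALAT1 (GRCh38.p14, chr11:65497738-65506516) is an abundant RNA of nuclear speckles, the bodies in which splicing factors are stored. Its log2 signal was 7.17, 6.82 and 6.91 in hypothermia replicates 1, 2 and 3, against 6.98, 6.95 and 6.51 in control replicates 1, 2 and 3. The groups overlapped, with the highest value in hypothermia replicate 1 and the lowest in control replicate 3. The means were 6.97 ± 0.182 at 28 °C and 6.81 ± 0.262 at 37 °C (SD, n = 3 each), a log2 difference of 0.16 (standard error 0.143). It was 0.00442 without control replicate 3 and 0.0526 without hypothermia replicate 1. NEAT1 (chr11:65422798-65445540), the RNA around which paraspeckles assemble, lies on the same chromosome and has no value here.

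NORAD (chr20:36045618-36050960) is a cytoplasmic RNA that carries many binding sites for RNA-binding proteins of the Pumilio family. Its log2 signal was 7.73, 7.72 and 7.68 in hypothermia replicates 1, 2 and 3, against 8.15, 8.47 and 7.91 in control replicates 1, 2 and 3. Every hypothermia array lay below every control array, and the hypothermia arrays lay close together. The mean was 7.71 ± 0.0296 at 28 °C and 8.18 ± 0.280 at 37 °C (SD, n = 3 each). The log2 difference was -0.47 (standard error 0.129), a signal at 28 °C of 0.724 times that at 37 °C. In RNA from a whole culture, fewer cells that express a gene and less of its RNA per cell cannot be told apart.

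OIP5-AS1 (chr15:41282697-41313338), known as Cyrano, carries a site to which miR-7 pairs extensively, and in mice this pairing leads to the decay of that microRNA. The mature human microRNA of the MIR7-1 gene is shown with its seed, bases 2 to 8, in capitals (RefSeq, GRCh38.p14, chr9:83969811-83969834, minus strand).
hsa-miR-7-5p: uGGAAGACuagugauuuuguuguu
The log2 signal of OIP5-AS1 was 6.79, 6.84 and 6.88 in hypothermia replicates 1, 2 and 3, against 7.31, 7.66 and 7.19 in control replicates 1, 2 and 3. As for NORAD, the groups were apart and control replicate 2 was the highest array. The means were 6.84 ± 0.0445 at 28 °C and 7.39 ± 0.242 at 37 °C (SD, n = 3 each), a log2 difference of -0.55 (standard error 0.116), or 0.682 times the signal at 37 °C.

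CHKB-DT (chr22:50583026-50595281) is a divergent transcript that starts next to CHKB, the choline kinase beta gene, and runs in the opposite direction. It had log2 signals of 4.87, 4.80 and 4.80 in hypothermia replicates 1, 2 and 3, against 5.56, 5.74 and 5.16 in control replicates 1, 2 and 3. The groups were apart by 0.288 on the log2 scale. The means were 4.82 ± 0.0414 at 28 °C and 5.49 ± 0.300 at 37 °C (SD, n = 3 each). Its log2 difference of -0.67 (standard error 0.137), or 0.630 times the signal at 37 °C, was the largest in size among the 8 genes. Without control replicate 3 it was -0.832.

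TUG1 (chr22:30969265-30979395) was first described in the developing mouse retina, and the RefSeq table gives it the biotype protein coding. It had log2 signals of 8.999, 9.032 and 9.127 in hypothermia replicates 1, 2 and 3, against 9.503, 9.488 and 9.172 in control replicates 1, 2 and 3. The groups were apart, but only by 0.0447, the distance between replicate 3 of the hypothermia group and replicate 3 of the control group. The means were 9.05 ± 0.0665 at 28 °C and 9.39 ± 0.187 at 37 °C (SD, n = 3 each), a log2 difference of -0.33 (standard error 0.0998), or 0.793 times the signal at 37 °C.

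MEG3 (chr14:100826108-100861026), expressed from the maternal allele of the imprinted DLK1 region, had log2 signals of 6.54, 6.54 and 6.52 in hypothermia replicates 1, 2 and 3, against 6.76, 6.48 and 6.42 in control replicates 1, 2 and 3. The hypothermia arrays lay inside the range of the control arrays. The means were 6.53 ± 0.00830 at 28 °C and 6.55 ± 0.185 at 37 °C (SD, n = 3 each), and the log2 difference of -0.02 was smaller than its standard error of 0.0952. With an array left out it lay between -0.0873 (without control replicate 3) and 0.0856 (without control replicate 1). H19 (chr11:1995176-2001266), the maternally expressed RNA of the IGF2 region, has no value here.

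LINC00273 (chr16:34158585-34159973) had the only difference upward with separate groups. Its brighter feature had log2 signals of 10.16, 10.28 and 10.09 in hypothermia replicates 1, 2 and 3, against 9.71, 9.59 and 9.65 in control replicates 1, 2 and 3. The means were 10.2 ± 0.0979 at 28 °C and 9.65 ± 0.0609 at 37 °C (SD, n = 3 each), a log2 difference of 0.53 (standard error 0.0744), or 1.44-fold. The other feature of the gene was dimmer, at 5.88, 6.06 and 5.94 in hypothermia replicates 1, 2 and 3 and at 5.60, 5.72 and 5.95 in control replicates 1, 2 and 3. There the groups overlapped and the log2 difference was 0.20 (standard error 0.102), so the 2 features did not give the same picture. A pseudogene of the 5.8S ribosomal RNA, RNA5-8SP2, is annotated 2986 bases from LINC00273. Whether the promoter window or the probes of LINC00273 also match ribosomal RNA was not tested.

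LINC00641 (chr14:21200079-21206900), a long intergenic RNA, had the lowest signals of the 8 genes. They were 4.61, 3.91 and 4.17 in hypothermia replicates 1, 2 and 3, against 3.77, 4.01 and 3.58 in control replicates 1, 2 and 3. Control replicate 2 lay above hypothermia replicate 2, so the groups overlapped. The means were 4.23 ± 0.354 at 28 °C and 3.79 ± 0.218 at 37 °C (SD, n = 3 each), a log2 difference of 0.44 (standard error 0.181), or 1.36-fold. Without hypothermia replicate 1 the difference was 0.25.

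**Figure D1:**
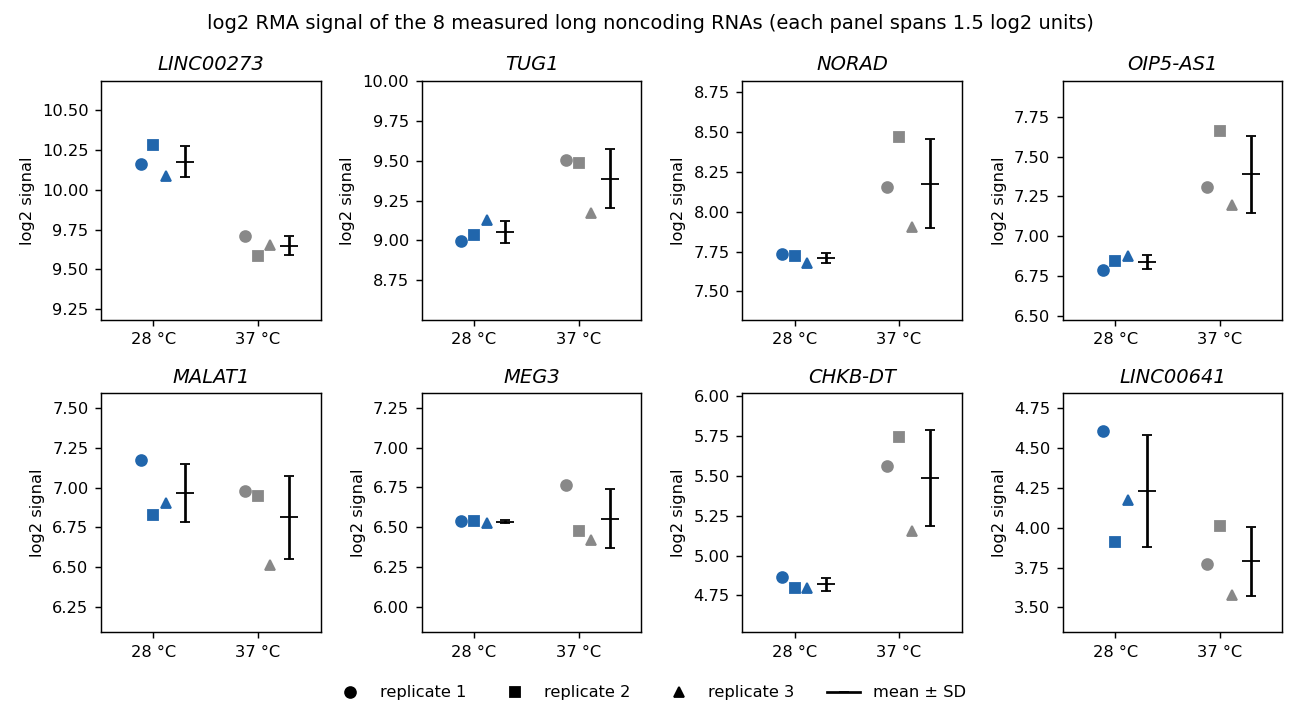
The log2 RMA signal of each of the 8 measured long noncoding RNAs (y axis, 1.5 log2 units in every panel) on the 3 arrays at 28 °C (blue) and the 3 arrays at 37 °C (grey), with bars for the mean and SD. NORAD, OIP5-AS1, CHKB-DT and TUG1 are lower on every 28 °C array, LINC00273 is higher on every 28 °C array, and MALAT1, MEG3 and LINC00641 overlap.

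Of the 8 genes, 4 were lower on every hypothermia array than on every control array and 1 was higher. Over all 70523 features, 8.48% were lower and 9.38% were higher in this way, and over the 1937 long noncoding RNA genes the shares were 3.46% and 9.91%. All features were also fitted with limma, a linear model that moderates each variance by those of the others, with Benjamini-Hochberg adjustment over the 70523 features and a threshold of 0.05. 1 of the 8, LINC00273, passed in the higher direction, and none passed in the lower direction, beside 0.227% of all features called higher, 0.591% called lower and 0.818% called in either direction. Since the genes were chosen with this contrast known, nothing is read from these counts. EMC3-AS1 was the only other long noncoding RNA gene called, with a log2 difference of 0.41 (limma, standard error 0.0668, adjusted p = 0.0431), and it missed the threshold whichever array was left out (adjusted p between 0.0541 and 0.199) and after each array was centred (0.0892). The median log2 difference was -0.177 over the 8 genes, 0.0433 over long noncoding RNA genes and 0.0262 over all features.

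**Figure D2:**
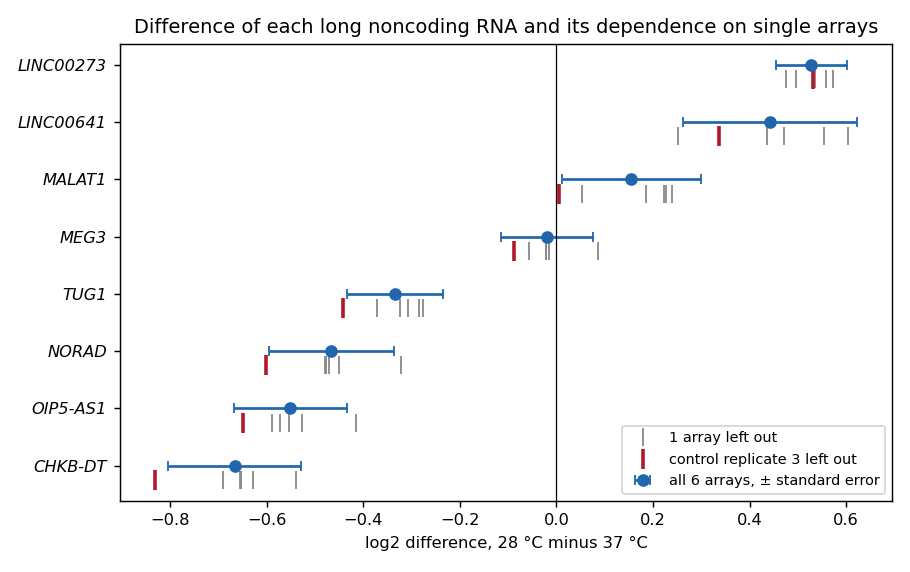
The log2 difference of 28 °C minus 37 °C (x axis) for each measured long noncoding RNA, with its standard error (blue), and the same difference with 1 array left out (grey ticks, red for control replicate 3). Leaving out control replicate 3 moves CHKB-DT to -0.832, OIP5-AS1 to -0.648, NORAD to -0.601 and TUG1 to -0.443, and moves MALAT1 to nearly 0.

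The 8 genes differed in how much they varied within a group. Their median SD was 0.0555 at 28 °C and 0.230 at 37 °C, and the control SD was the larger in 6 of the 8. Over all features the medians were 0.0766 at 28 °C and 0.105 at 37 °C, with the larger SD in the control group for 64.2%. Control replicate 3 was the lowest control array for 7 of the 8 genes, LINC00273 being the exception, while 27.4% of all features were lowest there. The median signal of this array lay above those of both other control arrays and inside the range of the hypothermia arrays. Over all features its median deviation from the group mean (0.0274) was the highest of any array. The same held for the median signal of its background features (2.598). What sets this array apart was not tested, and the differences without it are given in the plot of single arrays left out. NORAD, OIP5-AS1 and CHKB-DT were also alike in being highest on control replicate 2. This was not particular to these RNAs. Of the genes taken up below, PUM2 (8.05), TOP1 (9.52) and SUZ12 (7.81) were highest on that array too, while TNRC6A was highest on control replicate 1 (7.03).

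**Figure D3:**
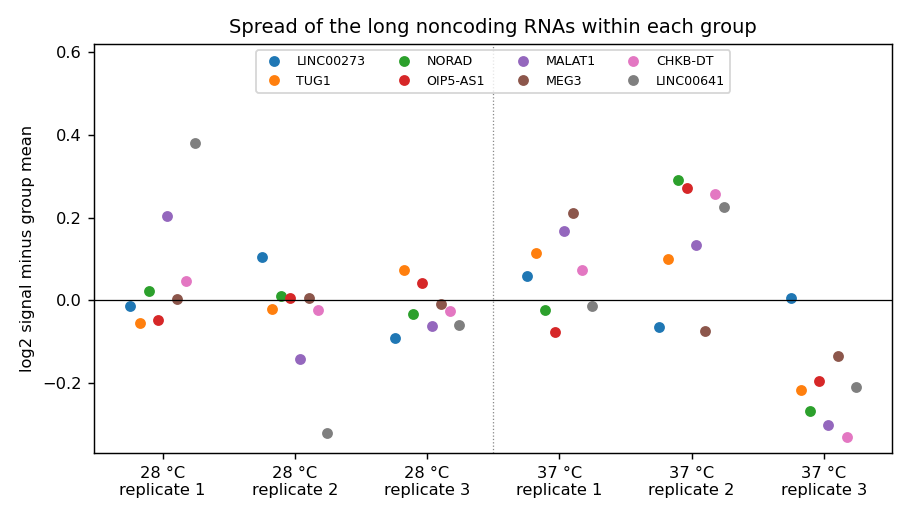
The log2 signal of each measured long noncoding RNA minus its group mean (y axis) on each array (x axis), 1 colour per gene. The points of control replicate 3 lie below the group mean for all genes but LINC00273, and among the hypothermia arrays MALAT1 and LINC00641 are spread most.

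The likeness of 2 genes over the 6 arrays was measured as the root mean square difference of their log2 signals after each was centred on its mean, a description in which the points share their arrays. Signals were centred over all arrays and not within a group, so the distance includes the difference between the groups. Some of the genes were chosen by that difference, and genes with a similar one are drawn together. Likeness within a group was not tested. Among the 8 genes, NORAD and OIP5-AS1 were closest (0.0709), followed by NORAD with CHKB-DT (0.112), OIP5-AS1 with CHKB-DT (0.113) and NORAD with TUG1 (0.131). Outside the 8, the genes nearest to NORAD were WDR36 (0.0163) and FAM91A1 (0.0174), and those nearest to OIP5-AS1 were USP53 (0.0352) and CHORDC1 (0.0382). CHKB-DT had BTAF1 (0.0416) and SNORD14E (0.0491) as its nearest genes, and TUG1 had CPLANE1 (0.0284) and LYST (0.0372). The nearest to LINC00273 were AMOTL2 (0.0536) and BCL2L11 (0.0585), and the nearest to MEG3 were FLJ43315 (0.0314) and ITGA5 (0.0331). MALAT1 had RNU6-39P (0.0632) and ZNF699 (0.0754), and LINC00641 had TRAV25 (0.114) and ARB2BP (0.118), the least close of these pairs. Over all genes the median distance from each of the 8 lay between 0.148 and 0.401.

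By mean array signal, which depends on the probes as well as on the RNA and so does not rank the genes by amount, the order was LINC00273, TUG1, NORAD, OIP5-AS1, MALAT1, MEG3, CHKB-DT and LINC00641. Their percentiles among the 22411 genes were 99.2, 98.0, 92.4, 85.0, 82.3, 77.5, 56.3 and 38.6 in that order. The ranges over the 6 arrays overlapped for OIP5-AS1 with MALAT1 and for MALAT1 with MEG3, and not for the other neighbours in the order. Of 23 background features, whose means ran from 1.76 to 10.9 with a median of 2.55, 14 lay below LINC00641, 15 below CHKB-DT and 22 below LINC00273.

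The nearest measured protein-coding genes on either side of each of the 10 loci gave 18 distinct genes, and none of them passed the adjusted threshold of limma. 3 had an unadjusted p under 0.05, against 11.5% of all features, and the median log2 difference was 0.0387. The neighbours too were chosen with earlier results of these data known, and nothing is read from their counts. CHKB, which makes phosphocholine, starts 177 bases from CHKB-DT on the other strand, and their promoter windows share 276 bases. It had 5.74 ± 0.0285 at 28 °C and 5.66 ± 0.0292 at 37 °C (SD, n = 3 each), a log2 difference of 0.08 (adjusted p = 0.663 from limma), against -0.67 for CHKB-DT. The difference between the pair was not tested.

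MORC2, a chromatin-silencing ATPase, starts 491 bases from TUG1 on the other strand. It had 6.68 ± 0.0288 at 28 °C and 7.02 ± 0.111 at 37 °C (SD, n = 3 each), a log2 difference of -0.34 that did not pass (adjusted p = 0.113 from limma), beside -0.33 for TUG1. OIP5, a centromere protein whose gene overlaps OIP5-AS1 on the opposite strand, had 6.23 ± 0.0501 at 28 °C and 6.54 ± 0.157 at 37 °C (SD, n = 3 each), a log2 difference of -0.31 (adjusted p = 0.216 from limma). With an array left out, OIP5 passed only without control replicate 3 (log2 difference -0.403, adjusted p = 0.0498 from limma). That fit called 1013 of all features, against 577 with all arrays. The strand that the array features of such overlapping genes read is not stated.

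Most other neighbours had small log2 differences. CHP1, a partner of the sodium-proton exchanger, lies 810 bases from OIP5-AS1 and had -0.06, and HNRNPC, an RNA-binding protein gene 2247 bases from LINC00641, had -0.03. OR5AU1, an olfactory receptor gene on the other side of LINC00641, had 0.12. FRMD8 and LTBP3, which flank MALAT1 and NEAT1 together, had 0.09 and 0.14. CNBD2 and EPB41L1 around NORAD had -0.02 and 0.02, MAPK8IP2 on the far side of CHKB-DT had 0.10, and SMTN on the far side of TUG1 had 0.09. In the imprinted regions, DLK1 and RTL1 beside MEG3 had 0.04 and 0.03, and MRPL23 and TH beside H19 had 0.12 and 0.14. ZNF267 and SHCBP1, the nearest measured genes to LINC00273, lie 2241228 and 12418618 bases away, with -0.01 and -0.30. None of the genes of this paragraph passed (adjusted p between 0.292 and 0.988 from limma).

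**Figure D4:**
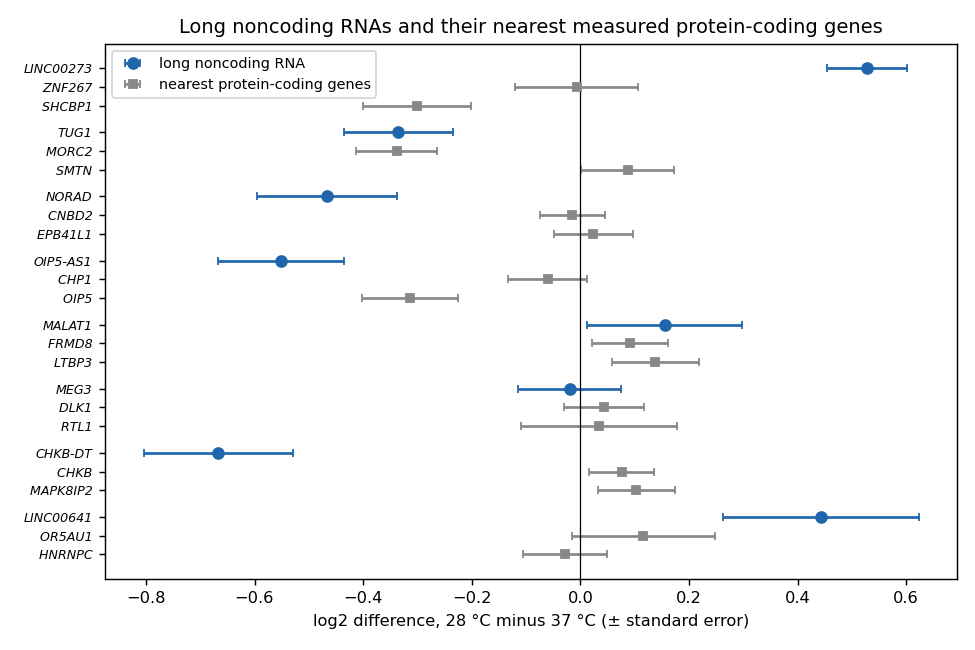
The log2 difference of 28 °C minus 37 °C with its standard error (x axis) for each measured long noncoding RNA (blue circles) and the nearest measured protein-coding gene on each side (grey squares). CHKB-DT stands at -0.67 and CHKB at 0.08, while TUG1 and MORC2 stand at -0.33 and -0.34.

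Genes linked to these RNAs were compared in 10 lists, 131 of whose 164 genes were measured. 1 was higher at 28 °C and 3 were lower at an adjusted p under 0.05, beside 0.227% and 0.591% of all features, and 33 had an unadjusted p under 0.05, a threshold that 11.5% of all features passed. The median log2 difference over the 131 genes was -0.0210. The lists were drawn up with earlier results of these data known, so nothing is read from their counts beside these shares. For the list genes, a bare value in parentheses after a log2 difference is its adjusted p from limma.

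Among factors of nuclear speckles and of MALAT1 processing, 1 of 17 measured genes rose and 1 fell, with a median log2 difference of -0.0278. SRSF5, a serine- and arginine-rich splicing factor, had 7.18, 7.10 and 7.03 in hypothermia replicates 1, 2 and 3, against 6.54, 6.65 and 6.33 in control replicates 1, 2 and 3. It rose by 0.60 on the log2 scale (limma, standard error 0.0943, adjusted p = 0.0367). POP1, a subunit of RNase P, the enzyme that cuts the 3′ end of MALAT1, had 5.53 ± 0.0411 at 28 °C and 5.96 ± 0.0940 at 37 °C (SD, n = 3 each) and fell by 0.43 (standard error 0.0712, adjusted p = 0.0462 from limma). With an array left out, SRSF5 passed without control replicate 2 or 3 (adjusted p as high as 0.155 in the remaining fits) and POP1 only without control replicate 3 (as high as 0.193). Both missed the threshold after each array was centred (adjusted p = 0.0766 for SRSF5 and 0.0591 for POP1), and POP1 also after quantile normalization (0.0596). SRSF1, SRRM2, RNPS1 and SRRM1 had log2 differences of -0.28, 0.22, 0.20 and 0.19 and did not pass.

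Of the paraspeckle proteins, which assemble on NEAT1, none of 15 measured genes passed in limma and 5 had an unadjusted p under 0.05, with a median log2 difference of -0.0716. The largest values were those of TARDBP (-0.30, adjusted p = 0.193), ZNF24 (-0.29, 0.201), EWSR1 (0.25, 0.176) and NUDT21 (-0.23, 0.409). Among partners and targets of NORAD and the Pumilio proteins none of 10 passed and 3 had an unadjusted p under 0.05, with a median of -0.0166. PUM2 itself, a repressor that NORAD binds, had 7.40, 7.35 and 7.22 in hypothermia replicates 1, 2 and 3, against 7.89, 8.05 and 7.68 in control replicates 1, 2 and 3. The arrays of PUM2 were apart in the direction of NORAD, and its log2 difference of -0.55 did not pass (adjusted p = 0.0691 from limma). CDKN1B, a cell cycle inhibitor whose mRNA Pumilio proteins bind, had -0.37 (0.0642), TOP1, a topoisomerase, had -0.38 (0.153) and NANOS1 had 0.21 (0.634). With an array left out, PUM2 (-0.65, 0.0300), CDKN1B (-0.42, 0.0389) and TOP1 (-0.47, 0.0492) passed only without control replicate 3. That fit called 1013 of all features, against 577 with all arrays and 172 to 294 with any other array left out.

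In the list of OIP5-AS1, miR-7 and microRNA-directed decay, 1 of 8 measured genes fell and none rose, with a median log2 difference of -0.0484. TNRC6A, the scaffold that links Argonaute to mRNA decay, had 6.14, 6.13 and 6.11 in hypothermia replicates 1, 2 and 3, against 7.03, 6.89 and 6.72 in control replicates 1, 2 and 3. It fell by 0.75 on the log2 scale (standard error 0.0856, adjusted p = 0.0105 from limma), and passed without each control array but not without hypothermia replicate 1, 2 or 3 (adjusted p = 0.0525, 0.0527 and 0.0507). LINC00632, the host transcript of a circular RNA with many miR-7 sites, had 0.26 (0.453), and TNRC6C, a paralogue of TNRC6A, had -0.12 (0.570).

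Of the factors of nuclear RNA decay and m6A methylation, 1 of 18 measured genes fell, none rose, and 7 had an unadjusted p under 0.05, with a median of -0.150. ZCCHC8, a subunit of the nuclear exosome targeting complex, had 6.21, 6.25 and 5.93 in hypothermia replicates 1, 2 and 3, against 6.82, 6.92 and 6.67 in control replicates 1, 2 and 3. It fell by 0.67 on the log2 scale (standard error 0.105, adjusted p = 0.0347 from limma), and with an array left out passed only without control replicate 3 (adjusted p as high as 0.164 in the remaining fits). After quantile normalization it missed the threshold (0.0544). ZFC3H1, which directs polyadenylated nuclear RNA to the exosome, had -0.65 (0.0549), and EXOSC3, an exosome subunit, had -0.52 (0.0661). XRN1, the cytoplasmic exonuclease, had -0.36 (0.306) and METTL14, a partner of the m6A methyltransferase, had -0.35 (0.373). None of these 4 passed. METTL3, the m6A methyltransferase, had -0.30 (0.0851) and did not pass either. Among features above the 50th percentile of signal, METTL3 (0.0468), ZFC3H1 (0.0347) and EXOSC3 (0.0402) passed. With an array left out, ZFC3H1 and EXOSC3 passed only without control replicate 3 (adjusted p = 0.0105 and 0.0318 from limma).

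PRC2, the complex that methylates lysine 27 of histone H3, has been reported to bind several of these RNAs. Each of its 10 measured genes had a lower mean at 28 °C, between -0.446 for EED and -0.00593 for JARID2, with a median of -0.137. Over all features, 59.6% had a higher mean at 28 °C. Lower values were not particular to PRC2, since the list of nuclear RNA decay and m6A factors had a lower median (-0.150). None of the 10 passed in limma and 4 had an unadjusted p under 0.05, beside 11.5% of all features. EED and SUZ12, core subunits, had adjusted p = 0.125 and 0.213, and MTF2 and AEBP2, accessory subunits, had log2 differences of -0.30 and -0.23. Among the imprinted genes around MEG3, none of 7 passed and 1 had an unadjusted p under 0.05 in limma, with a median of 0.0431, and the largest log2 differences were 0.20 for DIO3, 0.19 for MEG9 and 0.15 for BEGAIN. Around H19, none of 8 passed and 1 had an unadjusted p under 0.05 in limma, with a median of 0.120, and the log2 differences ran between -0.24 for NAP1L4 and 0.21 for PHLDA2.

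Of 8 genes of choline metabolism and the CHKB locus none passed in limma and 3 had an unadjusted p under 0.05, with a median of -0.00165. CEPT1 and PCYT1A, enzymes of phosphatidylcholine synthesis, had -0.34 (adjusted p = 0.118) and -0.22 (0.244). Among 31 other well-known long noncoding RNAs none passed and 2 had an unadjusted p under 0.05, with a median of 0.0324. FTX, from the X inactivation centre, had -0.40 (0.277) and EPB41L4A-AS1 had 0.37 (0.171).

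**Figure D5:**
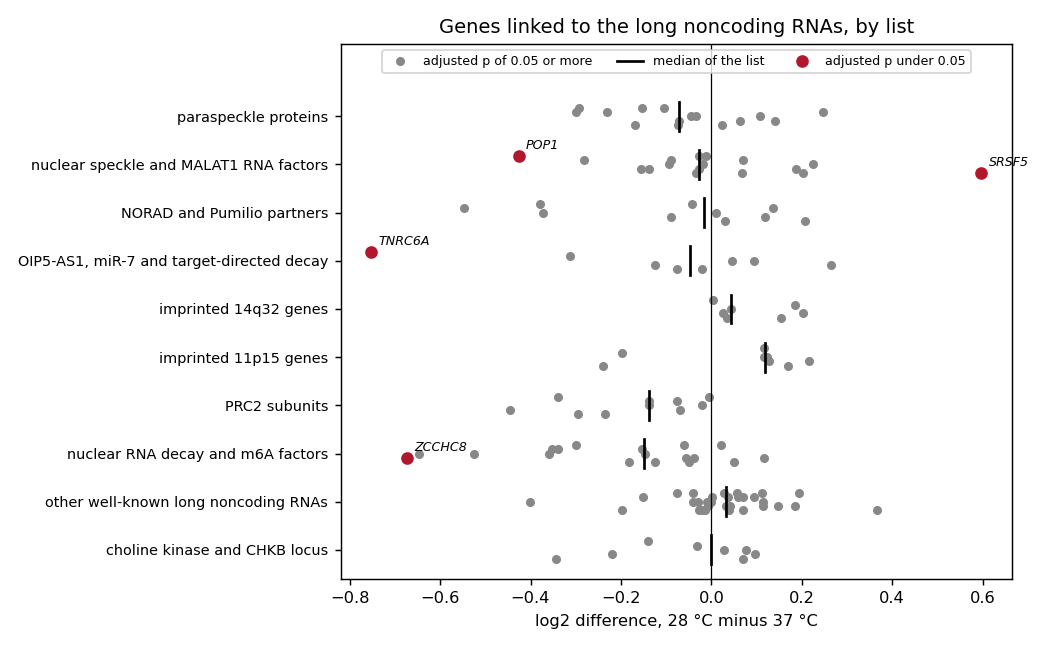
The log2 difference of 28 °C minus 37 °C (x axis) of each measured gene in the 10 lists of partners (rows), with the median of each list as a black line. Only SRSF5 (0.60), POP1 (-0.43), TNRC6A (-0.75) and ZCCHC8 (-0.67) have an adjusted p under 0.05 (red).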

How the data were processed

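Total RNA of 6 samples of AC16 cells was measured, 3 kept at 28 °C and 3 at 37 °C for 6 h. The authors deposited log2 signals made with RMA, version and settings unstated, and these were used as deposited. Of 70523 features, 23781 carried 1 gene symbol, 1543 carried several and 45199 carried none in the platform annotation. Symbols were updated through a RefSeq table (GRCh38.p14), in which 23777 features were found. The feature with the highest mean over the 6 arrays stood for a gene. R 4.3.3 with limma 3.58.1 (lmFit, eBayes, group as the only term) was run on all features, with p-values adjusted by Benjamini-Hochberg and a threshold of 0.05. The fits were tested on simulated data. The genes described, the lists and the neighbours were chosen with earlier results of these data known. Named in the text are all 10 genes, all neighbours, the genes of each list that passed with up to 4 more of the largest difference, and the 2 genes closest to each in likeness. EMC3-AS1, METTL3 and SMG1 were named after their values were seen. The alternatives were quantile normalization, centring, filters on dim features, other tests, a replicate block, other features of a gene and leaving out each array. The number of arrays limits the precision.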

Additional observations from a re-analysis of the deposited data

How the results depend on the processing

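The count of all features past the threshold was 577 (160 higher and 417 lower at 28 °C), 543 (190 and 353) after quantile normalization, 547 (121 and 426) after centring each array, 877 above the 50th percentile of signal, 0 with a plain t-test per feature (7186 at an unadjusted p under 0.05), and between 172 and 1013 with an array left out. The count over the lists was 4 as reported, 2 after quantile normalization, 2 after centring, 9 above the 50th percentile, 0 with the plain t-test (35 unadjusted), and between 0 and 11 with an array left out. It was 0 without any of the hypothermia arrays, 1 without control replicate 1, 2 without control replicate 2 and 11 without control replicate 3, where SMG1 was among those added. Above the 50th percentile PUM2, CDKN1B, METTL3, ZFC3H1 and EXOSC3 were added. The count over the neighbours was 0 as reported and between 0 and 1 with an array left out. The random variance model that the methods name gave 619 features and 4 list genes.

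With the replicate number as a block, 426 features passed and 3 list genes, POP1 being lost (adjusted p = 0.0775 from limma), and EMC3-AS1 was lost too (0.0984). Same-numbered arrays correlated by -0.0817, 0.114 and 0.215 in their deviations from the group means, and differently numbered arrays by -0.250 to 0.131. The largest value was that of the arrays numbered 3. The labels name no pairs, and the main fit did not take the numbers as pairs.

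Of 74 values of the 8 long noncoding RNAs under 11 settings, 4 changed sign. MALAT1 was -0.0411 with group medians, and MEG3 was 0.00904 after quantile normalization, 0.0588 with group medians and, with an array left out, between -0.0873 and 0.0856 (without control replicate 3 and control replicate 1). LINC00273 was 0.366 as the mean of its features and 0.204 by the dimmer one. The causes were not tested.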
